A study of Mus musculus with 2 samples.

Results

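In mouse adrenal gland, 15683 annotated genes had at least 1 read. The 10 imprinted genes described here are Cdkn1c, Ndn, Nnat, Snrpn, Grb10, Impact, Peg3, Igf2, H19 and Plagl1. They were chosen by name, and every read assigned to one of these names in either library was used. Reads were found for 8 of the 10. The RNA was sequenced with long reads from adrenal glands of male mice. They were 36 days old, had no treatment in the labels and were of strain B6CASTF1/J, an F1 hybrid of C57BL/6J and CAST/EiJ. There was 1 group of 2 libraries, replicate 1 and replicate 2, with no condition to compare. The labels give both libraries the same animal number in one field and different numbers in another, so the spread between the libraries may be partly technical and p-values measure only the difference between these 2 libraries.

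An imprinted gene is expressed mainly from the copy inherited from one parent, a state that goes back to DNA methylation marks set in the egg or the sperm at control regions. Depending on the region, the mark lies on the expressed or on the silent copy of a gene. Many imprinted genes act on growth before and around birth, and several are switched down in most tissues as the animal matures. Cdkn1c, H19 and Grb10 are known to be expressed from the maternal copy in most tissues, and Igf2, Plagl1, Peg3, Nnat, Ndn, Snrpn and Impact from the paternal copy. The deposited counts do not separate the parental copies, so the allele behind each read was not analysed here.

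The 2 libraries held 452437 and 463102 endogenous reads, that is, without spike-in RNA. Levels are given as CPM, the reads of a gene scaled to the endogenous reads of its library. A single read thus equals 2.21 CPM in the first library and 2.16 CPM in the second. In long-read data 1 read stands for 1 cDNA whatever its length, so CPM was compared between genes without division by length. Whether longer transcripts gave fewer reads was not tested. All 8 cortex markers and all 8 chromaffin markers had reads in both libraries, at 73579 and 58873 CPM summed for the cortex list and 11790 and 16826 CPM for the chromaffin list in replicates 1 and 2. Ddc, of the chromaffin list, had only 2 and 3 reads. Replicate 2 also held 4029 reads of 15 pancreas acinar genes and 305 reads of 8 liver genes, against 36 and 3 in replicate 1. In such bulk tissue, fewer cells of a type and less RNA per cell cannot be told apart.

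Cdkn1c and Ndn made up most of the signal. All 10 genes together gave 475 reads in replicate 1 (1050 CPM) and 354 in replicate 2 (764 CPM), and Cdkn1c alone gave 247 and 154 of these reads. The genes known as maternally expressed summed to 461 ± 154 CPM (SD, n = 2), of which Cdkn1c alone gave 439 CPM. Those known as paternally expressed summed to 446 ± 47.5 CPM. The sums differed by less than the spread between the libraries. Their order turned, with 570 CPM maternal against 480 CPM paternal in replicate 1 and 352 against 412 CPM in replicate 2. The maternal sum is mostly the level of 1 gene.

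**Figure D1:**
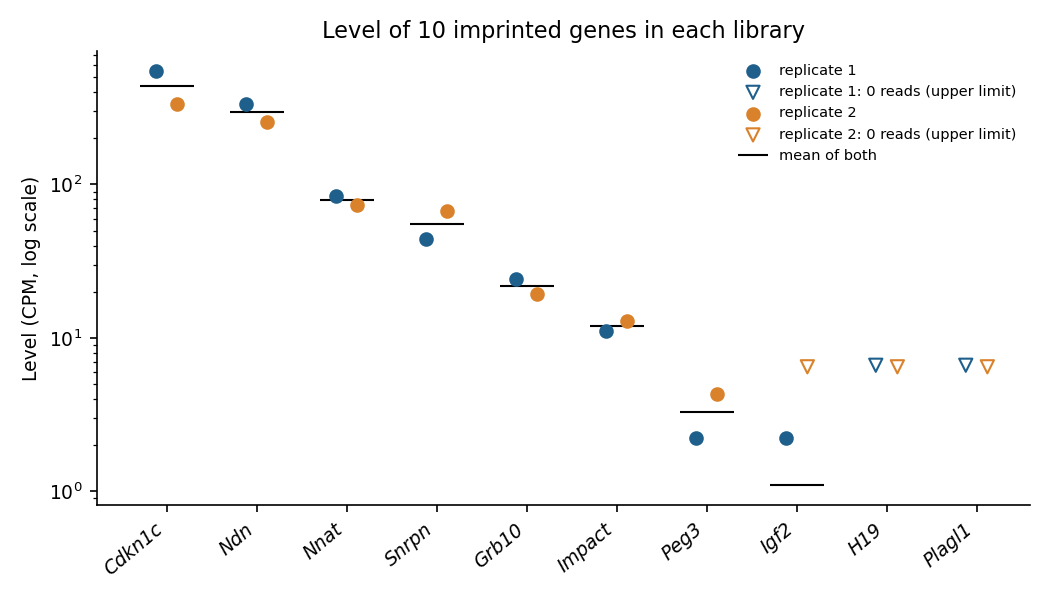
Level of each gene (CPM, log scale) in replicate 1 (blue) and replicate 2 (orange), with the mean as a black line. Open triangles mark 0 reads at the upper limit that such a count allows, 6.63 CPM in replicate 1 and 6.48 CPM in replicate 2. Cdkn1c and Ndn lie above 250 CPM in both libraries, while H19 and Plagl1 had no read.

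Cdkn1c encodes p57Kip2, an inhibitor of cyclin-dependent kinases that holds cells out of division. The gene lies on chromosome 7 from 143458339 to 143461050, on the minus strand of mm10. Its level was 546 CPM in replicate 1, against 333 CPM in the other library, or 439 ± 151 CPM (SD, n = 2), which placed it at rank 349 of all genes with reads. It was 1.64-fold higher in replicate 1 (exact 95% interval 1.34 to 2.02; Fisher's exact test, adjusted p = 4.67e-05) and did not reach the 2-fold needed for a call. The cortex list was higher in replicate 1 as well, as given above, and its part in the Cdkn1c difference was not tested.

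Ndn encodes necdin, a MAGE family protein of neurons and other non-dividing cells (chromosome 7, 62346569 to 62350262, plus strand). It had 152 reads in replicate 1 and 118 in replicate 2, that is 336 CPM and 255 CPM, with a mean of 295 ± 57.4 CPM (SD, n = 2). It was below Cdkn1c within each library, while Ndn in replicate 1 was level with Cdkn1c in replicate 2 (333 CPM), so the ranges over the libraries overlapped slightly. Nnat encodes neuronatin, a small membrane protein of the endoplasmic reticulum found in neuroendocrine cells. It had 38 and 34 reads, or 78.7 ± 7.48 CPM. Nnat (chromosome 2, 157560078 to 157562522, plus strand) sits inside an intron of Blcap, a gene on the other strand, which had 51 and 46 reads of its own.

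Snrpn encodes SmN, a core protein of the spliceosome most abundant in brain (chromosome 7, 59982495 to 60140219, minus strand). It had 20 and 31 reads, or 55.6 ± 16.1 CPM, below Nnat in both libraries although only by 3 reads in replicate 2. Over full-length reads alone (defined below), Nnat had 27 and 23 and Snrpn 20 and 31, so their order turned in replicate 2. All 216 exon bases of Snurf, a short gene read from the same messenger, lie within Snrpn-201. Snurf was listed with no read, and a read of one could not have been told from a read of the other.

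The other genes had few reads. Grb10, an adaptor that restrains signalling from insulin and insulin-like growth factor receptors (chromosome 11, 11930508 to 12038683, minus strand), had 11 and 9 reads (21.9 ± 3.45 CPM). Impact, a brake on the amino acid sensing kinase GCN2 (chromosome 18, 12955852 to 12992950, plus strand), had 5 and 6 reads (rank 7709 of all genes with reads). Both had reads in each library, and with counts this small their order is not resolved beyond counting error.

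Peg3, Igf2, H19 and Plagl1 were at or below the level that 0 reads allows. Peg3, a zinc finger protein of growth and maternal behaviour (chromosome 7, 6703892 to 6730431, minus strand), had 1 and 2 reads, all of them unspliced and next to the annotated end of the gene. Igf2, the fetal insulin-like growth factor (chromosome 7, 142650766 to 142666816, minus strand), had 1 read in replicate 1, an incomplete match at its last exon, and 0 in replicate 2. H19, a long non-coding RNA that lies 72.6 kb from Igf2 and shares its control region (chromosome 7, 142575529 to 142578143, minus strand), had 0 reads in both libraries. Plagl1, a zinc finger factor of growth control (chromosome 10, 13060504 to 13131694, plus strand), also had 0 in both. A count of 0 allows up to 6.63 CPM in replicate 1 and 6.48 CPM in replicate 2. At this depth H19 and Plagl1 were not detected, and the few reads of Peg3 and Igf2 lay within that limit. The longest annotated transcripts of the 4 genes are 8694 bases (Peg3), 4722 bases (Igf2), 2286 bases (H19) and 5260 bases (Plagl1). Whether length lowered their counts was not tested.

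The next question was how far each gene differed between the libraries. Of the 10 genes, 6 had at least 10 reads over both libraries and were tested, with p-values adjusted over all 8135 genes tested. A call needed a difference of 2-fold or more with an adjusted p below 0.05. By Fisher's exact test 0 of the 6 met this, against 3.16% of all tested genes (1.45% with the higher level in replicate 2, 1.71% with it in replicate 1). Without the fold threshold 1 of the 6, Cdkn1c, passed, against 6.47% of all tested genes (3.34% higher in replicate 1). The median log2 ratio of replicate 2 to replicate 1, with 1 CPM added, was -0.25 over the 6 and -0.03 over all tested genes.

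Cdkn1c stood at -0.71 and Ndn at -0.40 on this log2 scale, and Ndn was 1.32-fold higher in replicate 1 (exact 95% interval 1.03 to 1.69; adjusted p = 0.194 in Fisher's exact test). The ratios of Grb10 (-0.31) and Nnat (-0.19) were also below 0. Those of Snrpn (0.59) and Impact (0.21) were above 0. For these 4 the interval of the ratio spanned 1, so neither a difference nor its absence is shown.

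**Figure D2:**
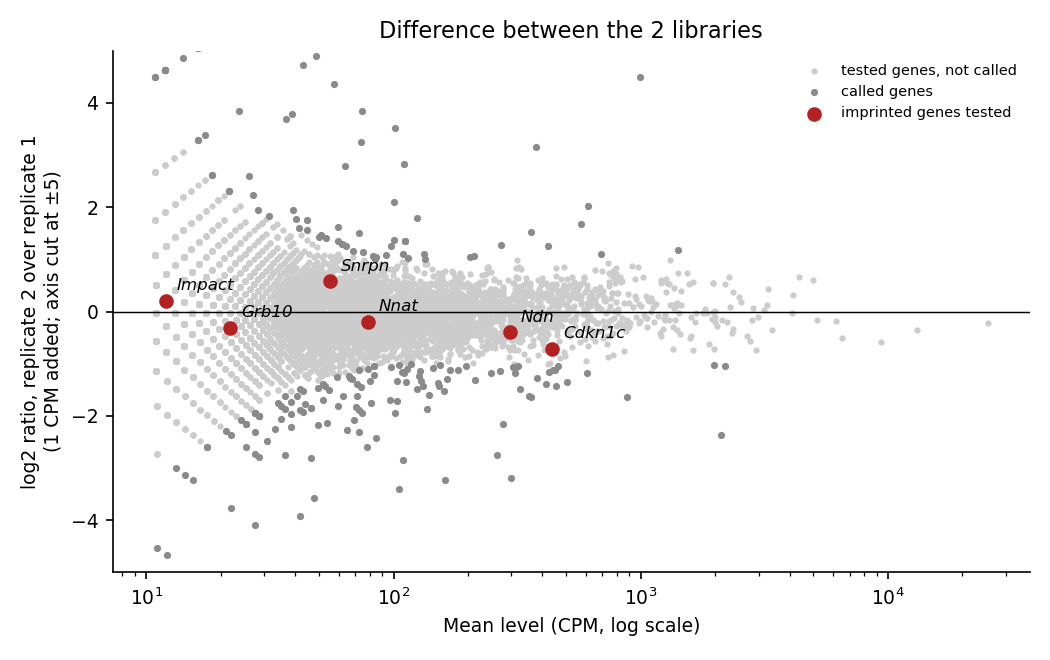
Log2 ratio of replicate 2 to replicate 1 (1 CPM added) against the mean level in CPM (log scale) for the 8135 tested genes, with called genes in dark grey and the 6 tested imprinted genes in red. None of the 6 meets both thresholds of a call, with Cdkn1c lowest at -0.71, and 53 genes fall outside the plotted range.

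Long reads also show which exons each molecule joins. A read is Known when it follows an annotated transcript. NIC stands for a new combination of known splice sites and NNC for a form with a new splice site. An ISM read matches part of an annotated transcript, and a Genomic read overlaps the gene without its splicing. Known reads made up 79.0% and 78.0% of the reads of all annotated genes in replicates 1 and 2. In Cdkn1c they made up 39.7% (Wilson 95% interval 33.8 to 45.9%) and 36.4% (29.2 to 44.2%). NIC reads were 49.8% (43.6 to 56.0%) and 45.5% (37.8 to 53.3%) of the Cdkn1c reads, against 4.23% and 3.57% over all genes. Some Cdkn1c forms listed as NIC use a site that no M21 transcript of the gene has, and some were NIC in one library and NNC in the other, so both classes are counted below as unannotated.

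All 152 and 118 reads of Ndn were Known. Its only annotated transcript has 1 exon and thus no splice sites to combine, so this share does not compare with that of Cdkn1c. Snrpn had 20 of 20 and 30 of 31 Known reads, and Impact 5 of 5 and 4 of 6. Nnat had 27 of 38 and 22 of 34 Known reads, and its Genomic reads, 11 in each library, were mostly 1 model inside the last exon, from 157561780 to 157562517 on chromosome 2, with 9 and 10 reads. Grb10 had 6 of 11 and 5 of 9 Known reads, with Genomic reads (2 and 3) that reach the annotated end of the gene.

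**Figure D3:**
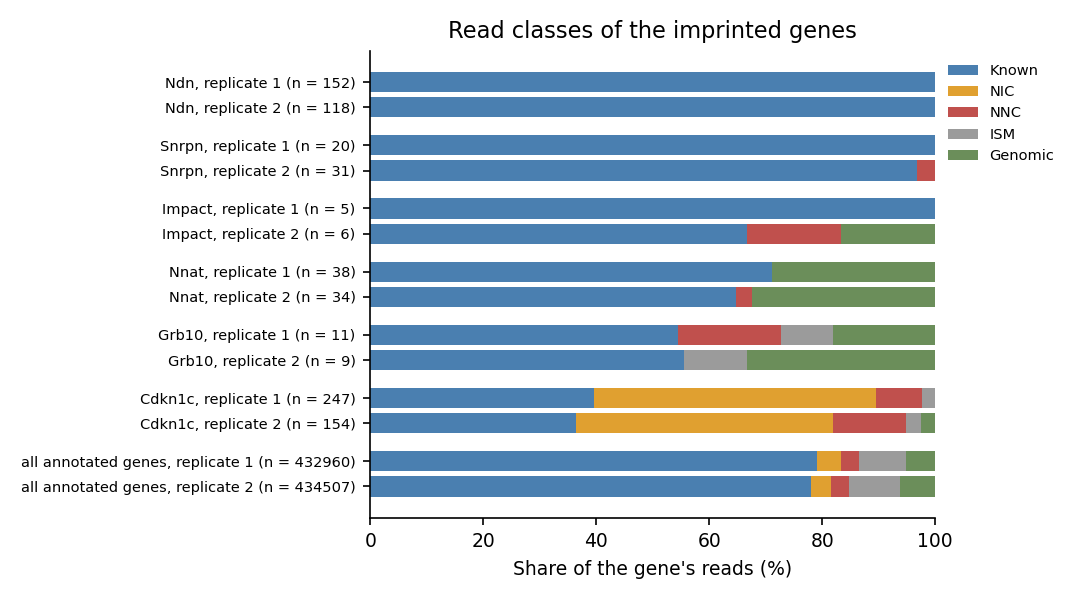
Share of each read class (percent of the gene's reads, with the number of reads n) in replicates 1 and 2, for the 6 tested genes and for all annotated genes. Cdkn1c stands apart by its NIC share of 49.8% and 45.5%, while Ndn, a gene of 1 exon without splice sites to combine, is Known throughout.

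Counting only full-length reads, that is Known, NIC or NNC, Cdkn1c had 26 forms, of which 22 are not annotated and 14 were seen in both libraries. Unannotated forms took 59.3% and 61.6% of its full-length reads, while the median of 1321 genes with at least 50 such reads in each library was 2.67% and 2.48%. Its leading form, Cdkn1c-201, took 32.4% (Wilson 95% interval 26.8 to 38.5%) and 29.5% (22.7 to 37.3%), against a median leading share of 94.7% and 95.0%. Only 5 of the 1321 genes had a lower mean leading share. Between the libraries the leading share of Cdkn1c gave an adjusted p of 1 in Fisher's exact test, and 0.227% of the 1321 genes were called for such a change.

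These forms came from a few splice sites in different combinations. Exon 2, which holds most of the coding sequence, could start at any of 3 acceptors, at 143460716, 143460678 and 143460675, called upstream, middle and downstream here, and could end at either of 2 donors, at 143459795 (inner) and 143459759 (outer). The upstream and middle acceptors and both donors are annotated, and the downstream acceptor is not. The sequences that follow are from GENCODE M21 transcripts (mm10), written 5′ to 3′ along the gene, and show what each choice adds or removes. The first runs between the annotated start codons, which are in capitals. The second surrounds the middle and downstream acceptors, with the AG before each in capitals. The third is the end of exon 2, with the 36 bases between the donors in capitals.
Start codons, chr7:143460666-143460707, minus strand: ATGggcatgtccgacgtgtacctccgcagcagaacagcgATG
Acceptors, chr7:143460670-143460690, minus strand: gtacctccgcAGcAGaacagc
Donors, chr7:143459759-143459810, minus strand: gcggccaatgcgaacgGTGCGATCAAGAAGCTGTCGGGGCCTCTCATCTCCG

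The middle acceptor was used most, by 153 of 236 reads in replicate 1 (64.8%, Wilson 95% interval 58.5 to 70.6%) and 90 of 135 in replicate 2 (66.7%, 58.4 to 74.1%). The downstream acceptor, 3 bases on, where AG follows AG in the second sequence, took 22.0% (17.2 to 27.7%) and 24.4% (18.0 to 32.3%). The upstream acceptor took 13.1% (9.41 to 18.0%) and 8.89% (5.16 to 14.9%). The interval of the middle acceptor lay above the others in both libraries. Those of the upstream and the downstream acceptor overlapped in replicate 1 and did not in replicate 2.

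Only the upstream acceptor keeps the first of the start codons, so 31 of 236 and 12 of 135 reads held it. The start codons lie 39 bases or 13 codons apart, in frame. A change from the middle to the downstream acceptor leaves the second start codon and the reading frame as they are.

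The donors were used about equally. The outer donor took 107 of 237 reads in replicate 1 (45.1%, Wilson 95% interval 38.9 to 51.5%) and 72 of 143 in replicate 2 (50.3%, 42.3 to 58.4%). The 36 bases it adds hold 12 codons and no stop in frame. Annotated transcripts that run from exon 1 have the inner donor, and the outer donor is annotated in Cdkn1c-205, whose start lies inside exon 2. Thus the second most abundant form, the middle acceptor with the outer donor, was unannotated although each of its sites is known. It had 65 and 39 reads, 27.0% and 26.7% of the full-length reads. The counts of the outer donor include 3 and 8 reads of Cdkn1c-205. The 6 and 4 ISM reads with the same start and the inner donor were left out. Among reads with an exon 2 acceptor, 104 and 64 had the outer donor and 130 and 70 the inner donor in replicates 1 and 2.

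Because 1 read spans both ends of exon 2, the choices could be read together. With the middle acceptor, 45.0% of reads in replicate 1 (68 of 151) and 45.6% in replicate 2 (41 of 90) had the outer donor. With the downstream acceptor the shares were 42.3% (22 of 52) and 45.5% (15 of 33). With the upstream acceptor they were 45.2% (14 of 31; Wilson 95% interval 29.2 to 62.2%) and 72.7% (8 of 11; 43.4 to 90.3%). The intervals overlapped in each library. A link between acceptor and donor was not tested, and the 11 reads with the upstream acceptor in replicate 2 are too few to resolve one.

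**Figure D4:**
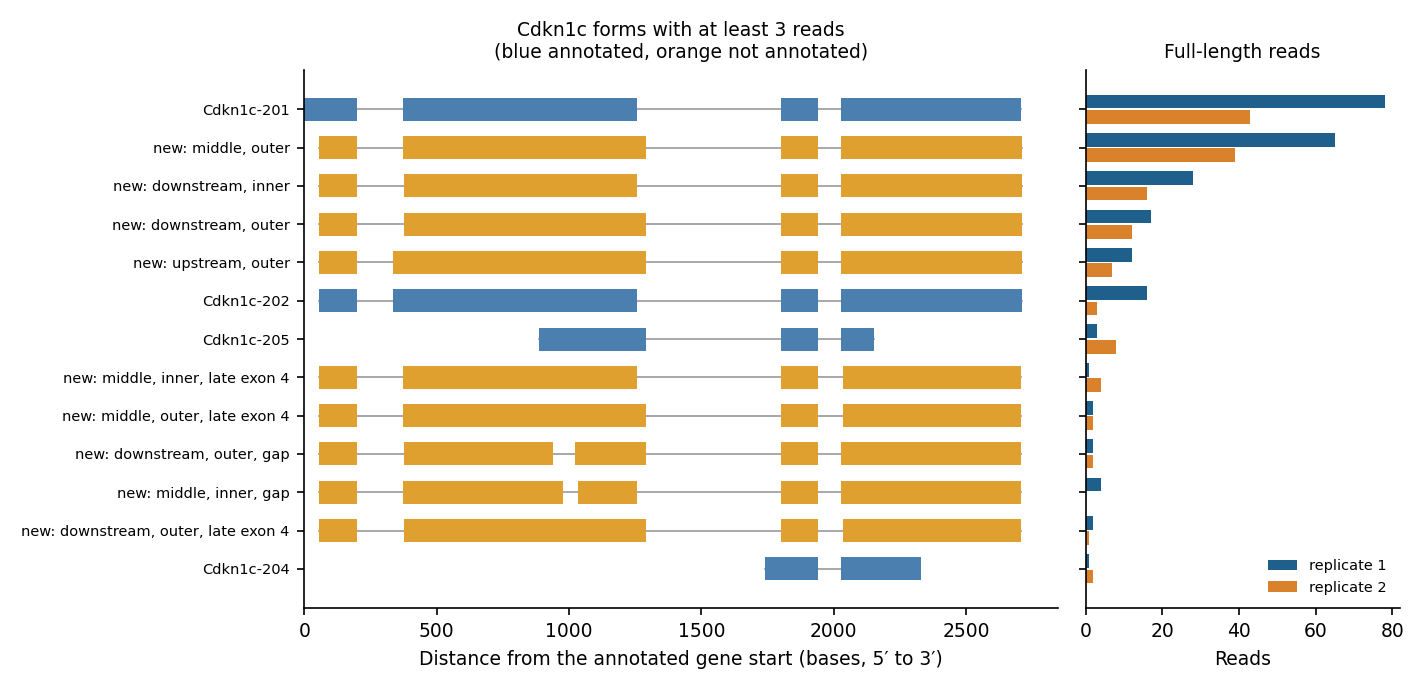
Exons of each Cdkn1c form with at least 3 reads, drawn from the annotated gene start (left, distance in bases; blue annotated, orange not annotated), and the full-length reads of each form in replicate 1 (blue) and replicate 2 (orange). Unannotated forms are named by their exon 2 acceptor and donor, and the form with the middle acceptor and the outer donor is second with 65 and 39 reads.

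The reading frames that follow from these forms fell into a few lengths. Among reads from exon 1 with intron 2 removed and the annotated stop codon in frame, 108 of 229 in replicate 1 and 63 of 133 in replicate 2 encode 335 codons, and 86 and 54 encode 347 codons. With the upstream start codon, 16 and 3 reads encode 348 codons and 13 and 8 reads encode 360 codons. The frame with the outer donor and the second start codon therefore took 37.6% (Wilson 95% interval 31.5 to 44.0%) and 40.6% (32.6 to 49.1%) of these reads. These are frames computed from the models, not measured proteins.

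A further set of forms lacked a stretch inside exon 2. Of the reads with an exon 2 acceptor, 11 of 236 (4.66%, Wilson 95% interval 2.62 to 8.15%) and 6 of 135 (4.44%, 2.05 to 9.36%) had such a gap, of 84 or of 59 bases, in a stretch of short repeats within the coding sequence. Both gaps begin with GT and end with AG, as introns usually do. The 3 bases before the 84-base gap match its last 3 bases, and the 1 base after it matches its first. For the 59-base gap 1 base matches in each way. The gaps could thus be placed a few bases to either side, and how they arose was not tested. The end of the 84-base gap is an annotated acceptor, that of Cdkn1c-203, and the other edges of the gaps are not annotated. They are shown in capitals with 12 bases on each side, since the repeated units are visible in them.
Gap of 84 bases, chr7:143460015-143460122, minus strand: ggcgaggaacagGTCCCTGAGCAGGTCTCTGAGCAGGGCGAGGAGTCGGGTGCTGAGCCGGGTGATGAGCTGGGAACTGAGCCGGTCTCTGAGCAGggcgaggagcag
Gap of 59 bases, chr7:143460003-143460085, minus strand: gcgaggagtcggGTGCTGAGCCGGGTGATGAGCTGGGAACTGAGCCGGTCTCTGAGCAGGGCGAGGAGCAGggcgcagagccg

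The gap of 84 bases was seen in 6 and 5 reads over 6 forms and removes 28 codons in frame. The gap of 59 bases was seen in 5 and 2 reads over 4 forms and shifts the frame, so that the annotated stop codon is no longer reached in frame. Each gap occurred with more than 1 acceptor and with both donors. The last intron varied as well: 8 of 241 reads (3.32%) and 9 of 146 (6.16%) joined exon 4 at a site 5 bases on from the annotated one, beyond the stop codon and so outside the coding sequence. Of the reads with an exon 2 acceptor, 2 of 236 and 1 of 135 kept intron 2. Another 2 reads in each library, without such an acceptor, ran into this intron, among them those of the annotated Cdkn1c-204.

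**Figure D5:**
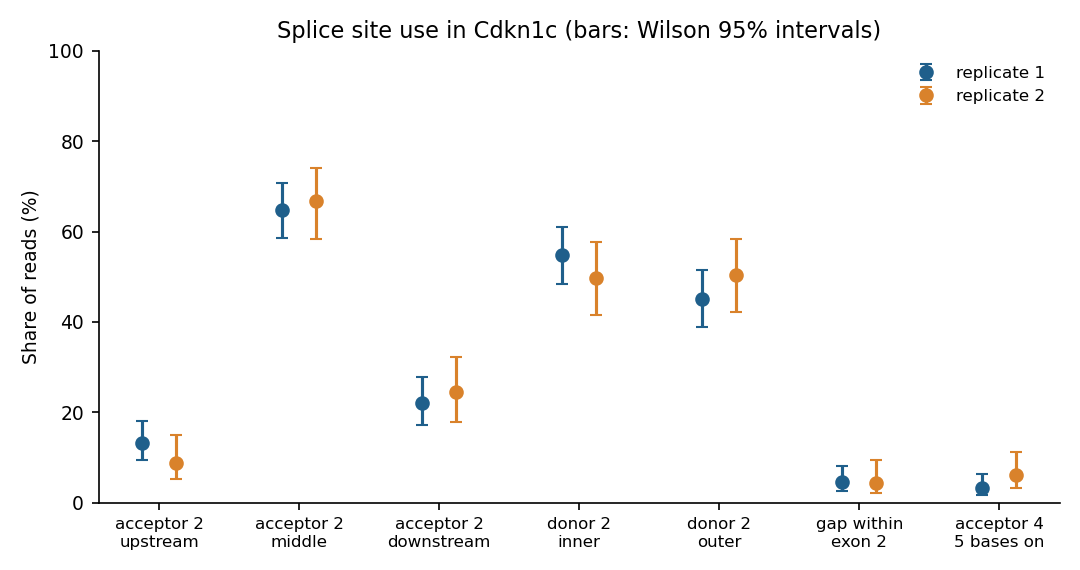
Share of Cdkn1c reads (percent) that used each splice site of exon 2, held a gap within exon 2 or joined exon 4 at the site 5 bases on, in replicate 1 (blue) and replicate 2 (orange), with Wilson 95% intervals. The middle acceptor leads at 64.8% and 66.7%, the inner and outer donors lie near each other, and the intervals of the libraries overlap at every site.

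Of the other genes, Nnat was the one with an alternative annotated form in both libraries. Nnat-202 includes exon 2 and Nnat-205 skips it, the forms known as alpha and beta. The exon, on chromosome 2 from 157561213 to 157561293, adds 81 bases or 27 codons inside the coding sequence, shown in capitals between 12 bases of each neighbouring exon.
Nnat exon 2, chr2:157561213-157561293, plus strand: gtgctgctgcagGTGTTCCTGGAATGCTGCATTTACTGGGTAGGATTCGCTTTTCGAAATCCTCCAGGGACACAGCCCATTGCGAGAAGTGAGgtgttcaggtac

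Over full-length reads, 18 of 27 in replicate 1 (66.7%, Wilson 95% interval 47.8 to 81.4%) and 16 of 23 in replicate 2 (69.6%, 49.1 to 84.4%) held the whole exon. The intervals overlapped. A further 3 reads of replicate 2 held a shorter version with the same start, of 27 bases in 2 reads (Nnat-210) and of 76 bases, which is not a multiple of 3, in 1 read (Nnat-208). Nnat-205, without the exon, took 9 and 3 reads.

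In the remaining genes 1 annotated form led. Ndn-201, the only annotated form of Ndn, took all 152 and 118 full-length reads, and Snrpn-201 took 20 of 20 and 30 of 31. Grb10-201 took 6 of 8 and 5 of 5, with 2 reads of an NNC form of 18 exons in replicate 1, and Impact-201 took 5 of 5 and 4 of 5. With so few reads, other forms of Grb10 or Impact could have been missed.

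Genes beside the imprinted members gave a setting for these levels. In the Igf2 and H19 region, Th, the chromaffin enzyme of catecholamine synthesis, had 1076 and 1252 reads at 226 kb from Igf2, and Mrpl23 had 29 and 47. Ins2, an insulin gene 11.8 kb from Igf2, had 0 reads in replicate 1 and 91 in replicate 2. It was the only neighbour called (higher in replicate 2, Fisher's exact test, adjusted p = 2.29e-25). Its level in replicate 2 was 29.6-fold that of a floor of 3 counts in replicate 1. The exact interval of the Ins2 ratio, replicate 2 over replicate 1, had a lower end of 23.6. The islet list it belongs to had 0 and 117 reads and the acinar list 36 and 4029, as markers of pancreas. Around Cdkn1c, Nap1l4 had 92 and 83 reads, Cars 25 and 19 and Kcnq1 5 and 7, while Kcnq1ot1, the non-coding RNA of the control region, had 1 in each library. Of the other neighbours, Sf3b5 (81 and 87 reads) lies near Plagl1, Ctnnbl1 (33 and 19) near Nnat, Ube3a (26 and 21) near Snrpn and Osbpl1a (16 and 9) near Impact. Of 29 annotated neighbours, 11 had at least 10 reads and were tested, and 11 had none. Among all tested genes 3.16% were called, and 1.45% were called higher in replicate 2.

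Of 49 other imprinted genes, 40 had reads and 20 were tested, with 1 called (Ins2 again, higher in replicate 2). Of all tested genes 3.16% were called, so 1 of 20 is near the background. Gnas was highest at 1990 ± 16.6 CPM (SD, n = 2), followed by Dlk1 (773 ± 287 CPM), Meg3 (463 ± 16.9 CPM), H13 (409 ± 19.1 CPM) and Dcn (115 ± 6.52 CPM). Cdkn1c at 439 CPM thus fell between Meg3 and H13, within its own spread of both.

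The partners of these proteins were also examined. Of 16 cyclin-dependent kinase inhibitors and their partners, 14 had reads, 11 were tested and none was called in either direction, against 3.16% of all tested genes (median log2 ratio -0.41, against -0.03 over all). Cyclin D3, Ccnd3, led with 316 and 226 reads, then Cdk4 (103 and 79), Ccnd2 (71 and 44), Ccnd1 (31 and 40) and Cdkn2c (22 and 21). Singled out after their values were seen as the nearest relatives of Cdkn1c, Cdkn1a had 26 and 15 reads and Cdkn1b had 0 in both.

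Of 18 genes of the insulin-like growth factor pathway, 16 had reads, 9 were tested and none was called (median -0.03). With 3.16% of all tested genes called, 0 of 9 does not set the pathway apart. The binding protein Igfbp7 had 710 and 571 reads, Igfbp4 55 and 55, Igfbp3 54 and 28, the Grb10 relative Grb14 20 and 21, and Igfbp6 18 and 26. Igf2 at 1 and 0 reads stood below its receptors Igf1r (8 and 8) and Igf2r (7 and 8) and below Igf1 (13 and 9), genes named here after their values were seen.

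In the GCN2 pathway, on which Impact acts, 7 of 7 genes had reads and 1 of 6 tested was called. Atf4, the transcription factor made when GCN2 is active, had 69 and 31 reads and was 2.28-fold higher in replicate 1 (exact 95% interval 1.47 to 3.60; Fisher's exact test, adjusted p = 0.00242). Eif2s1 had 68 and 35 reads, Ddit3 17 and 37, Asns 24 and 23 and Gcn1l1 13 and 8. The median of the 6 was -0.74, and 1.71% of all tested genes were called higher in replicate 1.

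All 7 other Sm protein genes exceeded Snrpn on average, from Snrpb (135 and 115 reads) and Snrpg (78 and 144) through Snrpe (62 and 74), Snrpd2 (45 and 77) and Snrpf (46 and 44). Snrpd1, named after its values were seen, had 34 and 26 reads and lay below Snrpn in replicate 2. None of the 7 was called, against 3.16% of all tested genes. Of 6 MAGE family genes, Maged1 came nearest to Ndn with 176 and 120 reads, followed by Maged2 (62 and 43), Nsmce3 (22 and 36), Magee1 (6 and 10) and Mageh1 (7 and 7), and none of the 5 tested was called, against the same 3.16%. The imprinted neighbour of Ndn, Magel2, had 1 read in each library. Of the relatives of Plagl1, Plag1 had no read and Plagl2 had 1 in replicate 1.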

How the data were processed

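Per the file headers and deposited notes, the authors aligned long reads to mm10 and assigned them to transcript models of GENCODE M21 or to new ones, in TALON's column layout. They deposited raw read counts per model. Aligner, versions and filters: not given in the sources used here. Reads on spike-in sequences (5564 and 15900) were left out. Counts were summed per annotated gene over all classes and scaled to CPM. Where several gene IDs share a symbol in a list, the one with the most reads was used.

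Each gene with at least 10 reads summed was tested by a two-sided Fisher's exact test (scipy 1.17.1) with Benjamini-Hochberg adjustment, and counted as called from 2-fold, after adding 1 CPM, with an adjusted p below 0.05. With 1 library a side, edgeR's quasi-likelihood test could not be fitted; edgeR 4.0.16 and DESeq2 1.42.0 supplied alternative scales only. The test was checked on simulated data that held counting error only, so the check does not cover other differences between libraries. Unannotated forms were matched between libraries by intron chain, since the same chain could be labelled NIC in one library and NNC in the other. Leading shares were tested for genes that had 50 or more full-length reads on both sides, and a call needed 10 percentage points. Shares carry Wilson 95% intervals and ratios exact conditional ones. Intervals, floors and tests cover counting error only, and amplified reads without molecular identifiers are not independent molecules. Tests compare the 2 libraries, not conditions.

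The members, lists and tests were chosen with earlier results of these data known, and the splice sites of Cdkn1c and their settings were picked after seeing the data. All 10 members are named. Of each list other than the cell type markers, the 5 most abundant genes and any called gene are named, and of the neighbours those with at least 10 reads. Cell type markers came from such lists too. They are given as sums, and most of their genes, called ones included, are not named. Endothelial genes summed to 842 and 808 CPM, stroma and capsule genes to 2491 and 1874 CPM, and adipose genes to 8437 and 9054 CPM. Sequences come from the M21 transcripts. No gene was named for a like pattern, since 2 libraries give none.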

Additional observations from a re-analysis of the deposited data

Results flagged for a closer look

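Reads on the strand opposite to Grb10 and Impact, which no comparison used, were above the 3 reads that a count of 0 allows. At Grb10 there were 6 antisense reads in replicate 1 and 7 in replicate 2, against 11 and 9 reads of the gene. Of these, 5 and 5 lay within the last 2587 bases of the gene. At Impact there were 7 antisense reads in each library, against 5 and 6 reads of the gene, and 5 and 5 of them formed a single-exon model that ends 646 bases before the annotated gene end. Over the whole libraries, antisense reads were 3.57% and 5.19% of endogenous reads. How the strand of a read was set is not given in the sources used here, so antisense and sense reads of these genes may not be fully separable, and this was not tested.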

How the results depend on the processing

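The count of called genes, 257, stayed between 212 and 254 under 7 other settings (TMM or DESeq2 scales, full-length reads only, no filter or at least 20 reads, pancreas and liver genes left out, 5 CPM added), and none of the members was called under any of them. The balance of these calls turned with the scale, from 118 higher in replicate 2 and 139 in replicate 1 to 140 and 114 with TMM, 120 and 117 with DESeq2 factors and 110 and 102 over full-length reads. Each tested member kept the direction of its ratio. The ratio of Cdkn1c ranged from -0.71 to -0.65 on the log2 scale, with adjusted p from 3.43e-05 to 3.60e-04, and Impact was not testable at 20 reads. The leading share of Cdkn1c, 30.9%, became 78.2% over Known forms only, since that leaves out the unannotated forms. Its value was 29.5% without replicate 1 and 32.4% without replicate 2. The summed level was 764 and 1050 CPM without replicate 1 and replicate 2. Over full-length reads only, Nnat fell to 54.7 CPM, Grb10 to 14.2 CPM and Peg3 to 0. Snrpn stayed at 55.6 CPM, so Nnat no longer stood above it on average. With at least 20 full-length reads, 2 genes were called for a change of leading share in place of 3. The splice site shares of Cdkn1c moved by less than the spread between libraries when forms of 1 library were left out. When ISM reads were added, the same held for the outer donor and for the last exon's site 5 bases on. The ISM reads start inside exon 2 and hold no exon 2 acceptor. Adding them could therefore not change the exon 2 acceptor shares and does not check those shares. No paired analysis was possible because there is only 1 group. Depth limits the genes under 10 reads, for which neither level nor form is resolved.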
